A study of Homo sapiens with 14 samples.

Results

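The 10 genes described here are the ligands of the epidermal growth factor receptor, its family of receptors and a feedback inhibitor of them, chosen by name: the ligands AREG, EREG, BTC, HBEGF, TGFA and EPGN, the receptors EGFR, ERBB2 and ERBB3, and the inhibitor ERRFI1. They are 10 of the 27543 named loci of the table and 10 of the 13137 named loci that were tested. RNA was sequenced from MCF-10A, an immortalised, non-tumorigenic human mammary epithelial cell line, on day 2 after retroviral infection, in 14 libraries that form 7 groups of 2. MRTFB dN Y305A/dPY is an MRTFB form that binds neither G-actin, SRF nor YAP, MRTFB dN Y305A lacks binding to G-actin and SRF, MRTFB dN dPY lacks binding to G-actin and YAP, and MRTFB dN lacks binding to G-actin alone. These 4 forms were set against the empty pMSCV Puro vector, and YAP 5SA, a hyperactive form of YAP, against the empty pMSCV Hygro vector. MRTFB is a coactivator of the transcription factor SRF, and YAP is a coactivator of TEAD factors. The study asked how MRTFB acts on genes that YAP and TEAD control and which genes need its binding to SRF or to YAP. All groups are cultures of 1 line infected with a vector that carries an overexpressed insert or none. The labels do not say whether the libraries of a group came from separate cultures, so the p values measure only the spread between these libraries, which may be technical.

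The ligands are made as membrane-anchored precursors that metalloproteases of the ADAM family cut free. A freed ligand binds EGFR, which pairs with another EGFR, with ERBB2 or with ERBB3, and the pair signals through adaptors to RAS and the kinases RAF, MEK and ERK. ERRFI1, also called MIG6, binds the kinase domain of EGFR and ERBB2 and shuts the receptors down. MCF-10A cells are routinely grown with added EGF, and amphiregulin (AREG) is a known target of YAP in this line.

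The RNA of both introduced genes was raised. MKL2, which is MRTFB under an older symbol, stood at 610 and 343 FPKM (a fragment count divided by gene length and library size) with MRTFB dN Y305A/dPY, 404 and 294 with MRTFB dN Y305A, 286 and 171 with MRTFB dN dPY and 300 and 165 with MRTFB dN, against 6.6 and 3.66 with the Puro vector. YAP1 stood at 625 and 529 FPKM with YAP 5SA, against 32.4 and 23.3 with the Hygro vector. Absolute depth is unknown, and relative depth ran between 0.319 in Puro vector replicate 1 and 1.40 in YAP 5SA replicate 1. In Puro vector replicate 1 4780 unnamed loci reached 1 FPKM, against 211 to 669 in the other libraries, and unnamed loci held 58.77% of its FPKM. MRTFB dN dPY replicate 1 holds no values on chromosome 7 beyond PPIA, nor on chromosomes 8, 9 and X, so EGFR rests on 1 library of that group. Of 8 markers of basal mammary epithelium 7 were at 1 FPKM or more in every library. The leukocyte marker PTPRC was at no more than 0.0316 FPKM in any library and the progesterone receptor gene PGR was listed at 0. The monocyte marker CD14 was at 30.6 to 149 FPKM in the 4 libraries of the Y305A forms at 1.31 to 4.01 in the 4 of the other MRTFB forms, and at 27.9 and 139 with the Puro vector. The endothelial marker CDH5 was at 4.51 to 14.6 FPKM in the libraries of the Y305A forms, at 0.631 to 2.78 in those of the other MRTFB forms, and at 0.0391 and 0 with the Puro vector. The endothelial markers PECAM1, VWF and KDR were at no more than 0.234 FPKM in any library. The fibroblast marker COL3A1 was at 0.263 to 3.76 FPKM in the 4 SRF-binding libraries and at no more than 0.0118 in the other 10. The fibroblast marker DCN was instead highest in the vectors, at 2.10 and 13.7 FPKM with Puro and 3.39 and 3.39 with Hygro. DCN was at 0.0574 to 0.732 FPKM in the SRF-binding libraries and at no more than 0.290 in those of the Y305A forms. COL1A1 was at 0.485 to 3.12 FPKM over the 14 libraries. Over all 14 libraries the summed FPKM was 297 to 807 for 6 leukocyte, 0.0952 to 14.8 for 4 endothelial and 0.828 to 16.5 for 5 fibroblast markers, the leukocyte sum resting on CD68, which shares its locus with other genes. The part of MKL2 level and of these markers in the results below was not tested. The RNA is of bulk cultures, in which fewer cells of a type and less RNA per cell cannot be told apart.

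HBEGF, the heparin-binding ligand of EGFR and ERBB4, was highest in the SRF-binding forms, MRTFB dN and MRTFB dN dPY. It stood at 82.8 and 43.7 FPKM with MRTFB dN and at 109 and 60.2 with MRTFB dN dPY, against 7.87 and 16.5 with the Puro vector. All 4 libraries of these forms lay above both vector libraries. The difference on the log2(FPKM + 1) scale was 2.30 ± 0.42 (SE, n = 2 libraries each) with MRTFB dN, which is 4.91-fold, with an adjusted p of 0.0024, and 2.72 ± 0.42 with MRTFB dN dPY, with an adjusted p of 0.000931. Both calls held when any 1 library was left out and with the Hygro vector as control (2.59 and 3.01). The Y305A forms were lower, at 25.5 and 23.7 FPKM with MRTFB dN Y305A and at 20.96 and 26.1 with MRTFB dN Y305A/dPY. Neither differed from the Puro vector beyond the threshold (1.04 with an adjusted p of 0.0902, and 0.97 with an adjusted p of 0.11). HBEGF was at 4.30 and 2.84 FPKM with YAP 5SA, below the 7.50 and 11.2 of the Hygro vector, a difference of -1.18 ± 0.42 that did not pass (adjusted p = 0.118).

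Promoters of 3 genes are shown with matches to motifs of SRF, TEAD and AP-1 in capitals. They are those of HBEGF and ERRFI1, genes lower upon loss of SRF binding, and an alternative promoter of EGFR, a gene that was higher. Each is the 250 bases before the start, 5′ to 3′ along the gene, from RefSeq on GRCh38.p14: HBEGF at chr5:140346604-140346853 on the minus strand, ERRFI1 at chr1:8026310-8026559 on the minus strand and EGFR at chr7:55109589-55109838 on the plus strand.
HBEGF: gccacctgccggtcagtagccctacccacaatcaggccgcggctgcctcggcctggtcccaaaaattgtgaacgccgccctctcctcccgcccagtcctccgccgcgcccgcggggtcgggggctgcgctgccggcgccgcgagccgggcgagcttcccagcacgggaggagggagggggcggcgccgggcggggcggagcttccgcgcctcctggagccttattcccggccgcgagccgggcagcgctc
ERRFI1: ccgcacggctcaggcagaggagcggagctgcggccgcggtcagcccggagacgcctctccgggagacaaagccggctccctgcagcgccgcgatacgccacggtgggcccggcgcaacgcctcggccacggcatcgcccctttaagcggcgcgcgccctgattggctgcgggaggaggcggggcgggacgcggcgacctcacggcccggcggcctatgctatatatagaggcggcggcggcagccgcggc
EGFR: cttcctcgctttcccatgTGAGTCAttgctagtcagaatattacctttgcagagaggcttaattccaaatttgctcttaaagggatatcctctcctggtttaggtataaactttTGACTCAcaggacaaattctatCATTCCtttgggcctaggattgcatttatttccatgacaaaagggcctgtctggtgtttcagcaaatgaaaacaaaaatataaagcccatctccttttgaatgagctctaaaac
The search covered both strands of 250 bases before to 50 after each start, in the 11 promoters that RefSeq lists for 9 of the 10 genes. The CArG box, the site of SRF, was searched as CCWWWWWWGG, where W is A or T, with no mismatch allowed. That pattern was in none of the 11 and in 1.29% of 35116 promoters of that length. Sites with a mismatch were not counted. GGAATG, a core that TEAD factors bind, was in 14% of all promoters and here in the EREG promoter and in the EGFR promoter shown, where it is read on the other strand. The motif TGANTCA, a loose pattern for the site of AP-1 that takes any middle base, was in 7.71% of all promoters. It was here in that of ERBB2, as TGATTCA, and at 2 places in the EGFR promoter shown, as TGAGTCA and TGACTCA. The HBEGF and ERRFI1 promoters shown hold no capitals. RefSeq lists 2 promoters of EGFR, and the upstream one, at chr7:55018767-55019066 and not shown, holds no match to any of the 3 motifs. The FPKM are per locus, so which of these EGFR starts was in use was not tested. A missing match says only that these letters are not in this window.

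TGFA, transforming growth factor alpha, stood at similar levels in all 4 MRTFB forms. It was at 55.1 and 37.7 FPKM with MRTFB dN Y305A/dPY, 52.4 and 31.9 with MRTFB dN Y305A, 57.5 and 37.3 with MRTFB dN dPY and 52.2 and 38.5 with MRTFB dN, against 11.1 and 19.0 with the Puro vector. The 8 libraries lay above both Puro vector libraries. It rose in all 4 comparisons, by 1.58, 1.43, 1.60 and 1.56 on the log2 scale (SE 0.36 each), with adjusted p between 0.00668 and 0.0193. Each of these calls ended when Puro vector replicate 1 or replicate 1 of that form was left out (adjusted p up to 0.169). With the Hygro vector as control the rises of both Y305A forms no longer passed (1.34 and 1.19). In YAP 5SA it was at 11.5 and 11.2 FPKM, against 15.1 and 20.1 with the Hygro vector, and the difference of -0.58 ± 0.36 did not pass.

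AREG varied widely between replicates. It stood at 31.8 and 23.9 FPKM with YAP 5SA, against 0.668 and 2.23 with the Hygro vector, and the groups did not overlap. The rise of 3.62 ± 1.00 passed narrowly, with an adjusted p of 0.0498. It did not pass in 10 of 14 fits that left out 1 library (adjusted p up to 0.218), nor against the Puro vector, where the difference was 0.45. AREG was at 9.80 and 41.0 FPKM with MRTFB dN and 2.01 and 16.3 with MRTFB dN dPY, against 8.59 and 44.5 with the Puro vector. It was at 1.01 and 6.15 FPKM with MRTFB dN Y305A and at 1.71 and 4.62 with MRTFB dN Y305A/dPY. Replicate 2 was above replicate 1 in all 5 of these groups, and no difference from the Puro vector passed (0.03, -1.53, -2.46 and -2.42 in the order given, each ± 1.00). This fit holds no term for the replicate number. With the replicate number as a block further AREG comparisons passed, as counted in the closing section, so the missing calls of AREG depend on that choice. The Puro vector was above the Hygro vector by 3.17, without passing the threshold (adjusted p = 0.0572), and against the Hygro vector MRTFB dN differed by 3.20 (adjusted p = 0.0465).

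EREG, epiregulin, reached 1 FPKM with the Puro vector (1.89 and 8.31) and in 1 other library, MRTFB dN Y305A replicate 2 (1.13). The other 11 libraries stood at 0.131 to 0.776 FPKM. The filter asked for 1 FPKM in 2 libraries, so EREG was tested only through the libraries in which it is high, and its differences from the Puro vector are a description. They were -1.92 with MRTFB dN dPY, -1.87 with MRTFB dN Y305A/dPY, -1.75 with MRTFB dN and -1.67 with MRTFB dN Y305A (SE 0.47 each), with adjusted p of 0.00998, 0.0177, 0.015 and 0.0273. Each of these calls ended without replicate 1 of that form, and all but that of MRTFB dN dPY without Puro vector replicate 2 (adjusted p up to 0.205). Against the Hygro vector (0.202 and 0.174) the differences had the other sign, 0.21 to 0.45, and did not pass. The difference of the Puro from the Hygro vector was 2.13, with an adjusted p of 0.0197, a call that rests on the same libraries and ended without either Hygro vector library (adjusted p up to 0.0808).

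BTC, betacellulin, which binds EGFR and ERBB4, stood at 12.7 and 9.66 FPKM with MRTFB dN Y305A/dPY, 17.1 and 6.78 with MRTFB dN dPY and 10.4 and 6.55 with MRTFB dN, against 2.43 and 3.47 with the Puro vector. It rose in these 3 forms, by 1.63, 1.60 and 1.25 (SE 0.41 each), with adjusted p of 0.0184, 0.0125 and 0.0356. These calls ended when Puro vector replicate 1 or replicate 1 of the form was left out, and that of MRTFB dN also without Puro vector replicate 2 or either YAP 5SA library (adjusted p up to 0.228). Against the Hygro vector the differences of MRTFB dN (1.03, adjusted p = 0.11) and MRTFB dN Y305A/dPY (1.41, adjusted p = 0.109) did not pass. In MRTFB dN Y305A it was at 10.4 and 6.07 FPKM, and the difference of 1.198 missed the threshold (adjusted p = 0.0539). EPGN, epigen, was the most abundant of the 6 ligands in the vectors, with YAP 5SA and in the Y305A forms, where it made up 40.8% to 50.6% of their summed FPKM. With YAP 5SA it was at 127 and 129 FPKM, against 118 and 71.8 with the Hygro vector. It was at 34.3 and 40.7 FPKM with MRTFB dN, against 68.2 and 65.9 with the Puro vector. No comparison of EPGN passed. The lowest adjusted p among those with a vector was 0.0625, for MRTFB dN, which passed against the Hygro vector (-1.28, adjusted p = 0.0169).

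**Figure D1:**
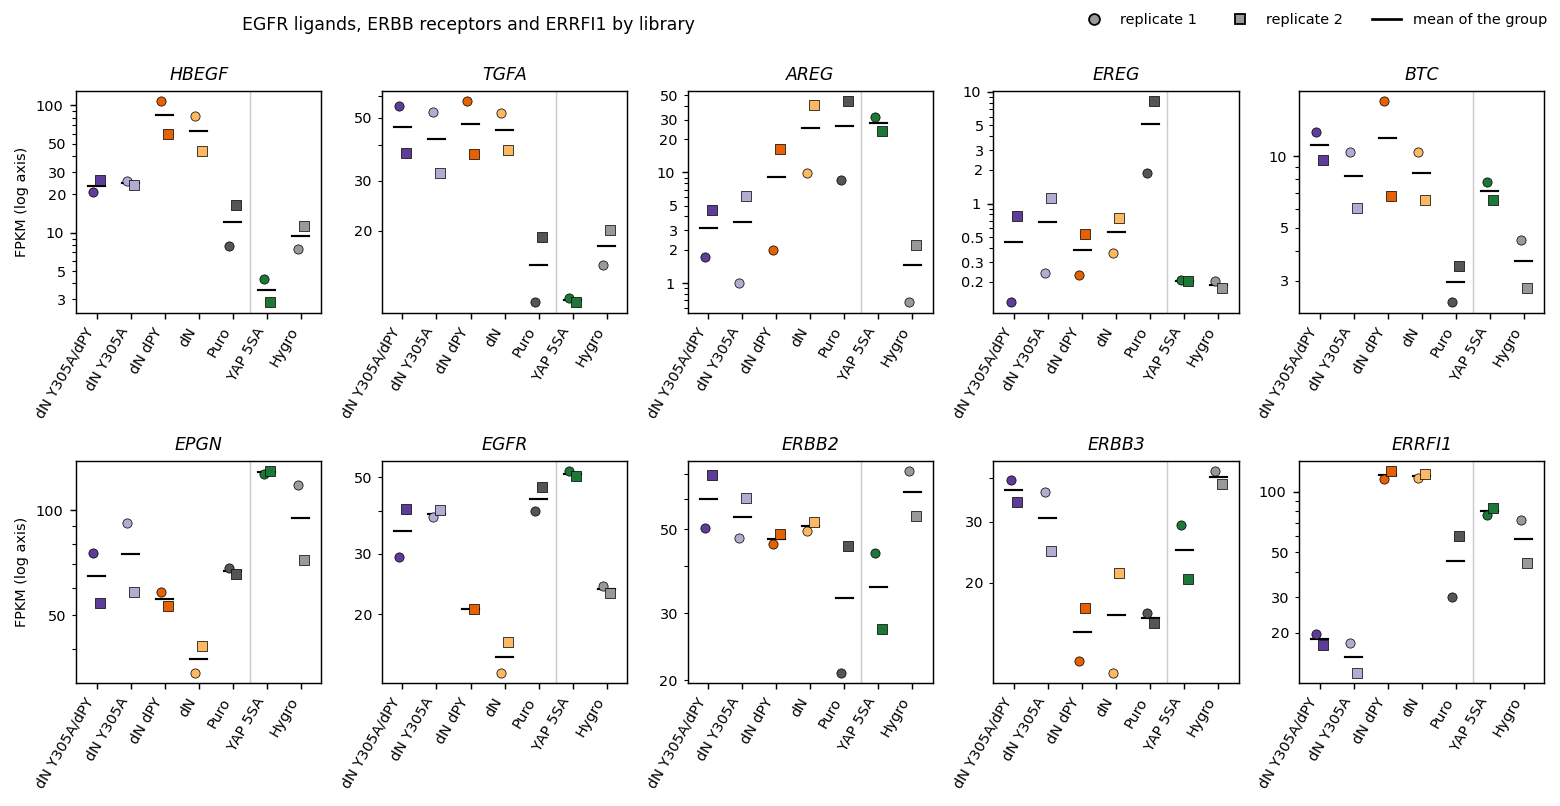
FPKM of each of the 10 genes (vertical log axis, a scale of its own in each panel) in the 14 libraries, by group along the horizontal axis. Circles are replicate 1, squares replicate 2 and lines the group mean, which is a single library for EGFR with MRTFB dN dPY. HBEGF and ERRFI1 are highest with MRTFB dN and MRTFB dN dPY, EREG with the Puro vector.

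The ligands' summed FPKM was 127.4 to 244.2 in the 8 libraries of the MRTFB forms, against 100.1 and 157.6 with the Puro vector. HBEGF made up 25.5% to 44.6% of it in the 4 libraries of MRTFB dN and MRTFB dN dPY and 12.6% to 19.6% in those of the Y305A forms, against 7.86% and 10.5% with the Puro vector. TGFA made up 21.4% to 33.2% in the 8 MRTFB libraries, against 11.1% and 12.04% with the Puro vector. EPGN made up 18.1% to 50.6% in those 8 libraries, against 68.1% and 41.8% with the Puro vector. AREG made up 17.4% and 13.8% with YAP 5SA, against 0.458% and 2.06% with the Hygro vector. These are shares of RNA scaled per length, not of ligand protein. EGF, described below, is left out of the sum and of all shares. It stood at 13.1 to 25.99 FPKM in the SRF-binding libraries and at no more than 0.231 in the others.

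**Figure D2:**
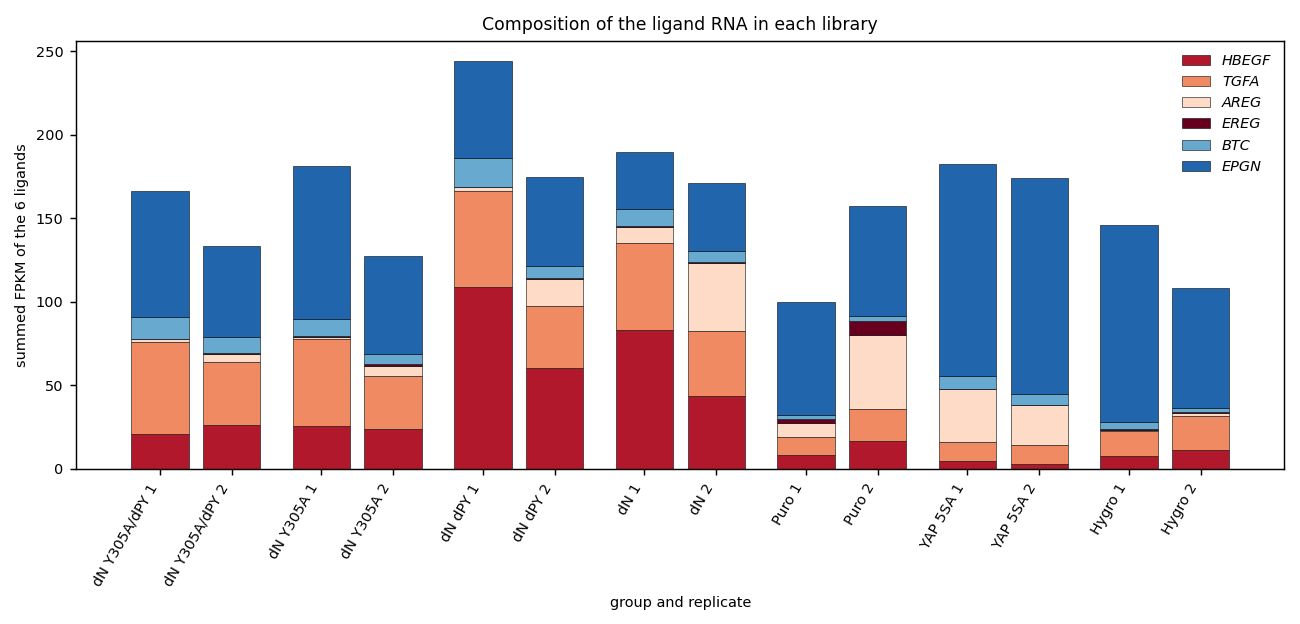
Summed FPKM of the 6 ligands in each library (bar height), split by ligand, with group and replicate along the horizontal axis. HBEGF reaches 109 FPKM with MRTFB dN dPY replicate 1, the library with the highest sum (244.2), and EPGN takes 66.3% to 80.9% with the Hygro vector.

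Among the receptors, EGFR moved in opposite directions under MRTFB dN and YAP 5SA. It stood at 13.6 and 16.6 FPKM with MRTFB dN, against 39.9 and 46.9 with the Puro vector, and at 52.2 and 50.4 with YAP 5SA, against 24.2 and 23.2 with the Hygro vector. Neither pair of groups overlapped. EGFR fell by 1.47 ± 0.24 on the log2 scale with MRTFB dN (adjusted p = 0.00172) and rose by 1.09 ± 0.24 with YAP 5SA (adjusted p = 0.0258). The rise ended when either YAP 5SA or either Hygro vector library was left out (adjusted p up to 0.162). The vectors also differed, the Puro vector being higher by 0.84 (adjusted p = 0.0459, kept in 1 of 14 fits that left out a library). With the vectors exchanged the differences were -0.62 with MRTFB dN and 0.24 with YAP 5SA, and neither passed. In the 1 usable MRTFB dN dPY library EGFR was at 20.8 FPKM, a fall of 1.02 ± 0.30 against the Puro vector (adjusted p = 0.0241), which ended without Puro vector replicate 2 (adjusted p = 0.0545) and with the Hygro vector as control. It was at 38.3 and 40.2 FPKM with MRTFB dN Y305A and 29.4 and 40.4 with MRTFB dN Y305A/dPY, near the Puro vector (-0.14 and -0.32, neither passing).

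ERBB3, the receptor with a weak kinase that signals to PI3-kinase, stood at 39.6 and 34.2 FPKM with MRTFB dN Y305A/dPY, against 16.3 and 15.3 with the Puro vector. That rise of 1.17 ± 0.33 passed (adjusted p = 0.0281) but not without any 1 of these 4 libraries (up to 0.163), while 36.5 and 24.8 FPKM with MRTFB dN Y305A gave 0.89 and did not. Both Hygro vector libraries stood as high, at 42.0 and 38.5 FPKM, and the difference of the Puro from the Hygro vector was -1.30 (adjusted p = 0.0309), which ended without any 1 of these 4 libraries. Against the Hygro vector the difference of MRTFB dN Y305A/dPY was -0.12, and those of MRTFB dN (-1.33) and MRTFB dN dPY (-1.44), which did not pass against the Puro vector, passed. ERBB2, the receptor with no ligand of its own, whose locus also holds MIR4728, was at 20.9 to 71.3 FPKM over the 14 libraries and passed in no comparison with a vector. The fourth receptor, ERBB4, was at no more than 0.0166 FPKM in any library.

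ERRFI1 stood at 117 and 122 FPKM with MRTFB dN and 116 and 127 with MRTFB dN dPY, against 30.1 and 60.3 with the Puro vector. Its levels in the Y305A forms were 17.7 and 12.7 FPKM with MRTFB dN Y305A and 19.8 and 17.4 with MRTFB dN Y305A/dPY. The SRF-binding forms lay above both vector libraries and the Y305A forms below both. ERRFI1 rose by 1.47 and 1.48 with MRTFB dN and MRTFB dN dPY, and fell by 1.45 with MRTFB dN Y305A and 1.16 with MRTFB dN Y305A/dPY (SE 0.35 each). The adjusted p were 0.00846, 0.00816, 0.0158 and 0.0328. The rises ended without Puro vector replicate 1 (adjusted p up to 0.0571), that of MRTFB dN also without its replicate 1 and with the Hygro vector as control, and the falls without Puro vector replicate 2 or a library of the form itself (up to 0.147), that of MRTFB dN Y305A/dPY also without either YAP 5SA library. In YAP 5SA it was at 76.7 and 83.1 FPKM, against 72.0 and 44.4 with the Hygro vector, a difference of 0.49 that did not pass.

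Counted over the 10 genes, 2 rose and none fell with YAP 5SA, where 8.26% of all tested loci passed in either direction, 3.93% upward and 4.33% downward. With MRTFB dN 4 rose and 2 fell, where 36.8% of all tested loci passed, 21.8% upward and 15% downward. With MRTFB dN dPY 4 rose and 2 fell, where 35.8% passed, 21% upward and 14.8% downward. With MRTFB dN Y305A 1 rose and 2 fell, where 25.2% passed, 14.2% upward and 11% downward. With MRTFB dN Y305A/dPY 3 rose and 2 fell, where 26.4% passed, 15% upward and 11.4% downward. Between the vectors 2 were higher and 1 lower with Puro than with Hygro, where 14.2% passed, 5.68% upward and 8.54% downward. EREG, tested only through the Puro vector and 1 other library, is 1 of the 2 that fell in each MRTFB form and 1 of the 2 higher with Puro. No test of these counts against the percentages was made. The 4 MRTFB comparisons share the Puro vector libraries.

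**Figure D3:**
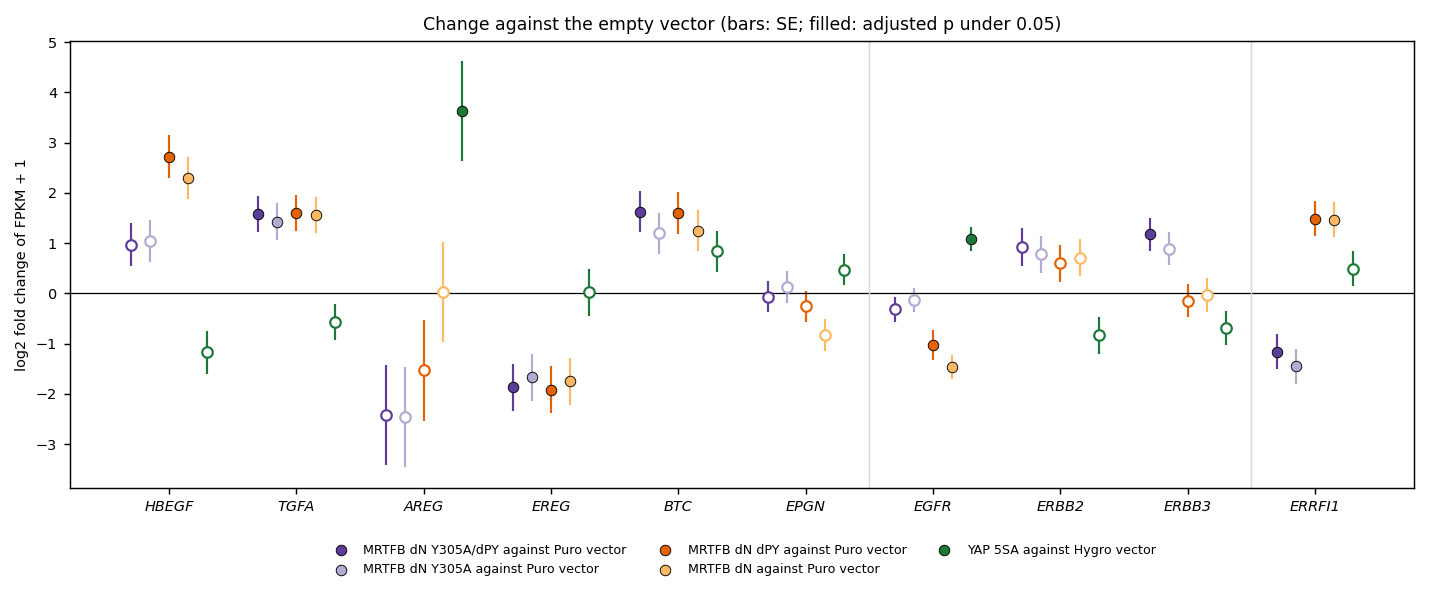
Log2 fold change of FPKM + 1 (vertical axis) of each of the 10 genes in the 4 MRTFB forms against the Puro vector and with YAP 5SA against the Hygro vector. Points are the fitted differences, bars 1 SE, and filled points have an adjusted p under 0.05. HBEGF is at 2.30 with MRTFB dN and -1.18 with YAP 5SA, and EGFR at -1.47 and 1.09.

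Comparing the MRTFB forms with each other removes the vectors from the comparison. Loss of SRF binding, the mean difference of the Y305A forms from their SRF-binding counterparts, moved 4 of the 10 genes, 2 up and 2 down, where 30.6% of all tested loci passed, 13.9% upward and 16.7% downward. ERRFI1 changed by -2.78 ± 0.25 on the log2 scale (6.87-fold lower, adjusted p = 9.64e-06) and HBEGF by -1.504 ± 0.299 (2.84-fold lower, adjusted p = 0.00292). ERBB3 was higher by 1.12 ± 0.24 (adjusted p = 0.00414) and EGFR by 1.02 ± 0.19 (adjusted p = 0.00276). In each of these 4 genes the 4 libraries of the Y305A forms did not overlap those of the SRF-binding forms, with 1 MRTFB dN dPY library for EGFR. The genes were picked by this same difference, so the separation is a description. Its share over all tested loci was not counted. All 4 calls held in every fit that left out 1 library and could be made, while that of EGFR ended when the zeros of the empty library part were kept as values. TGFA, BTC and EREG differed by -0.08 ± 0.26, -0.01 ± 0.29 and 0.06 ± 0.33, and AREG by -1.69 ± 0.71 without passing (adjusted p = 0.0975) in this fit, which has no replicate block. Between MRTFB dN Y305A and MRTFB dN alone 1 gene was higher (EGFR, 1.33) and 1 lower (ERRFI1, -2.91), where 16.7% of all tested loci passed, 6.12% upward and 10.6% downward.

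None of the 10 genes passed upon loss of PY, the part that binds YAP. The limma test called 0 of 10 at an adjusted p under 0.05, where 0.0228% of all tested loci passed, 0.00761% upward and 0.0152% downward. At an unadjusted p under 0.05 it called 0 of 10, where 537 of the 13137 tested loci passed. The differences of the dPY forms from their counterparts ran between -0.76 ± 0.71 for AREG and 0.39 ± 0.29 for BTC, with 0.18 ± 0.30 for HBEGF and 0.15 ± 0.25 for ERRFI1. For MRTFB dN dPY against MRTFB dN the counts were again 0 and 0 of 10. Of all tested loci 0.236% passed adjusted, 0.145% upward and 0.0913% downward, and 438 of 13137 passed unadjusted. The interaction of both losses was called for 0 of 10 genes, adjusted and unadjusted. Of all tested loci 0.0228% passed adjusted, 0.0152% upward and 0.00761% downward, and 254 of 13137 passed unadjusted. With 2 libraries a group, smaller differences could not be seen.

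**Figure D4:**
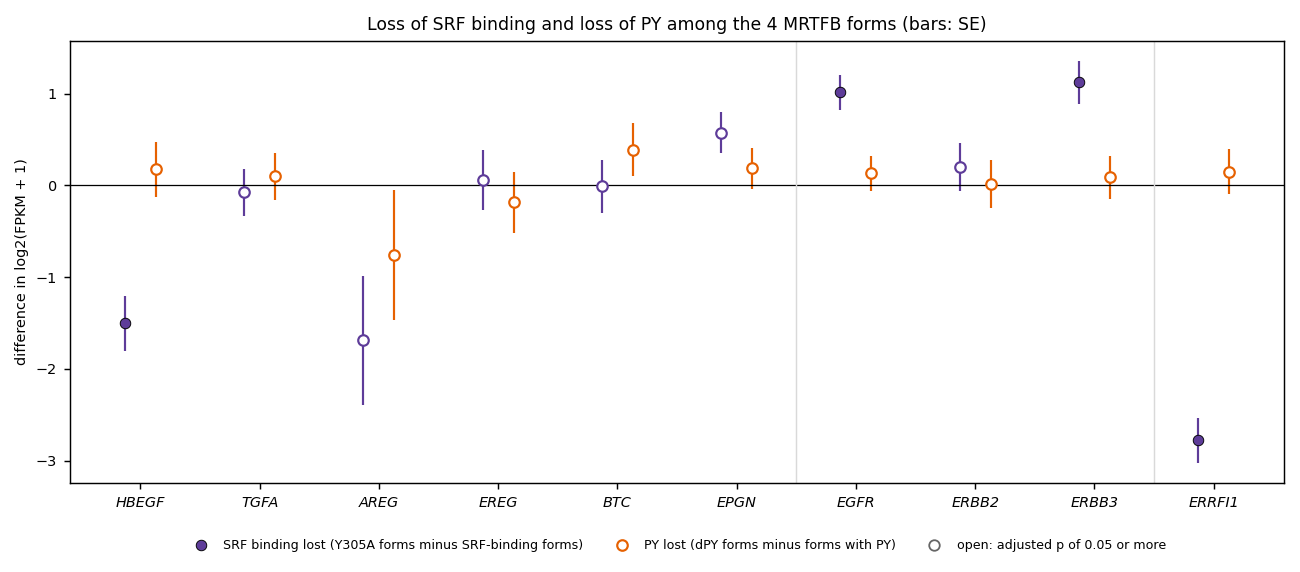
Difference in log2(FPKM + 1) (vertical axis) of each of the 10 genes upon loss of SRF binding (Y305A forms minus SRF-binding forms) and upon loss of PY (dPY forms minus forms with PY), each over both backgrounds. Points are fitted differences, bars 1 SE, filled points have an adjusted p under 0.05. ERRFI1 is at -2.78 upon loss of SRF binding and at 0.15 upon loss of PY.

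The effect of MRTFB dN against its vector and that of YAP 5SA against its own differed in 4 of the 10 genes, 3 upward and 1 downward, where 29% of all tested loci passed, 17.9% upward and 11.1% downward. The effect of MRTFB dN was above that of YAP 5SA by 3.47 for HBEGF (adjusted p = 0.00281), by 2.13 for TGFA (adjusted p = 0.012) and by 1.55 for ERBB2 (adjusted p = 0.0469), and the difference for EGFR was -2.55 (adjusted p = 0.00106). The ERBB2 difference passed in 1 of 14 fits that left out 1 library, and that of TGFA ended without MRTFB dN replicate 1 (adjusted p = 0.0552). These differences rest on both vectors, which themselves differ.

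Of the other genes of the pathway, EGF itself and NRG1 were highest in the SRF-binding forms. EGF, the founding EGFR ligand, stood at 24.2 and 25.99 FPKM with MRTFB dN and 13.6 and 13.1 with MRTFB dN dPY, against 0.0887 and 0.0869 with the Puro vector. The Y305A forms had 0.122 to 0.231 FPKM, so the 4 SRF-binding libraries stood apart from all the others. EGF rose by 4.58 ± 0.18 with MRTFB dN (24.0-fold on the FPKM + 1 scale, adjusted p = 4.48e-08). Loss of SRF binding changed it by -4.04 ± 0.13 (adjusted p = 2.73e-09). EGF passed the filter only through these 4 libraries, so it had to differ, and these values are a description. NRG1, neuregulin 1, the ligand of ERBB3 and ERBB4, stood at 20.0005 and 15.5 FPKM with MRTFB dN and 25.1 in the usable MRTFB dN dPY library, against 0.793 and 1.26 with the Puro vector. It rose by 3.21 ± 0.28 with MRTFB dN (adjusted p = 3.95e-05), and loss of SRF binding changed it by -3.73 ± 0.23. NRG1 also rose with YAP 5SA, to 3.50 and 2.38 FPKM, against 0.206 and 0.955 with the Hygro vector (1.35, adjusted p = 0.0208). Of the 6 listed genes of this group 3 were tested, of which 2 rose with MRTFB dN, EGF being 1 of them, where 21.8% of all tested loci rose.

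Of the 9 proteases that free the ligands and their iRhom partners, 3 rose and 1 fell with MRTFB dN, against 21.8% of all tested loci that rose and 15% that fell. ADAM19, a metalloprotease, was at 38.3 and 67.4 FPKM with MRTFB dN, against 0.544 and 3.34 with the Puro vector (4.32 ± 0.58, adjusted p = 0.00039), and loss of SRF binding changed it by -4.56. ADAM9 rose by 1.58, and ADAM12, at a mean of 0.940 FPKM and named after its value was seen, by 1.66, and it passed the filter only through the 4 SRF-binding libraries. ADAM15 fell by 1.14, at 128 and 119 FPKM with MRTFB dN, against 193 and 391 with the Puro vector. Upon loss of SRF binding ADAM15 rose by 2.49, RHBDF2, the iRhom that carries ADAM17, by 1.79 and its partner FRMD8 by 1.73. ADAM17, the main sheddase of several of these ligands, was at 13.1 to 20.8 FPKM over the 14 libraries.

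Of 10 genes that ERK signalling commonly induces 8 rose and 1 fell upon loss of SRF binding, against 13.9% of all tested loci that rose and 16.7% that fell, and their median difference was 1.02, against 0.04 over all tested loci. ETV4, an ETS factor, was at 20.8 and 21.2 FPKM with MRTFB dN Y305A/dPY and 18.1 and 19.4 with MRTFB dN Y305A, against 0.782 and 1.30 with MRTFB dN dPY and 1.08 and 1.00 with MRTFB dN (3.36 ± 0.28, adjusted p = 6.73e-06). The related ETV5 rose by 1.55 ± 0.21, the ERK phosphatase DUSP6 by 1.70 ± 0.28 and the receptor EPHA2 by 1.56 ± 0.41. EPHA4, at a mean of 1.12 FPKM and named after its value was seen, changed by -1.63, and PHLDA1 by -0.34 without passing. Against the Puro vector the median of the list was 0.61 with MRTFB dN Y305A and -0.33 with MRTFB dN, with 2 of 10 rising with MRTFB dN Y305A, where 14.2% of all tested loci rose, and 1 rising and 2 falling with MRTFB dN, where 21.8% rose and 15% fell.

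Of 16 other inhibitors of EGFR and RAS-ERK signalling 1 rose and 3 fell with MRTFB dN, where 21.8% of all tested loci rose and 15% fell. The riser was DUSP5, a nuclear ERK phosphatase, at 101 and 79.8 FPKM with MRTFB dN, against 2.13 and 3.90 with the Puro vector (4.54 ± 0.36, 23.2-fold, adjusted p = 9.76e-06). Loss of SRF binding changed DUSP5 by -3.55 ± 0.26, beside ERRFI1. Of 16 adaptors and kinases of the RAS-ERK core 8 rose and none fell with MRTFB dN, against the same percentages, among them the adaptors GAB2 (2.69) and GRB2 (1.85) and the kinase MAP2K2 (1.70). In MRTFB dN Y305A 7 of the 16 rose, where 14.2% of all tested loci rose. Between the vectors 4 of the 16 were lower with the Puro vector, where 8.54% of all tested loci were lower, and their median difference was -0.71, against -0.07 over all tested loci.

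**Figure D5:**
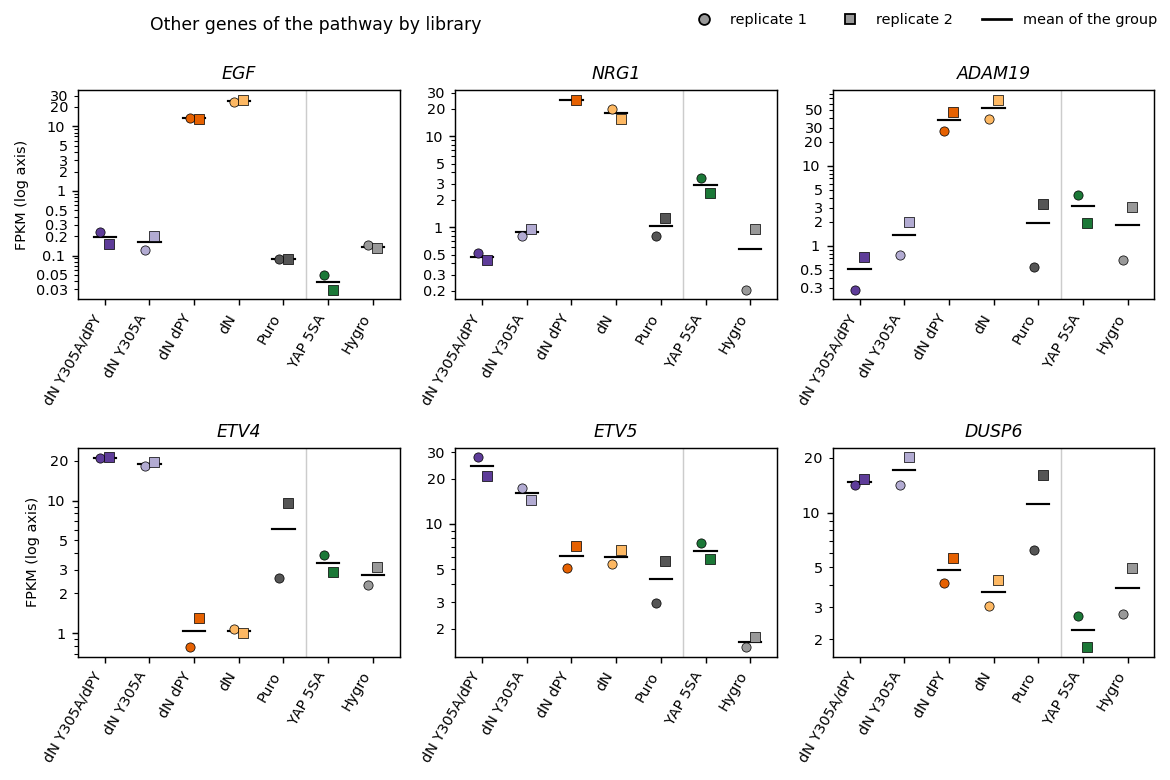
FPKM (vertical log axis, own scale per panel) of the ligands EGF and NRG1, the protease ADAM19 and the ERK-induced genes ETV4, ETV5 and DUSP6 in the 14 libraries by group. Circles are replicate 1, squares replicate 2, lines group means, a single library for NRG1 with MRTFB dN dPY. EGF is at 13.1 to 25.99 FPKM in the SRF-binding forms and no higher than 0.231 in the other libraries.

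By Pearson's r of log2(FPKM + 1) over the 14 libraries, the loci most like HBEGF were C6orf89 (0.984), ATP2A2 (0.981) and EPHX4 (0.969). Those most like TGFA were ANO10 (0.976), M6PR (0.975) and SHISA4 (0.968), and those most like ERRFI1 were IRS2 (0.956), TIMP3 (0.942) and UFM1 (0.931). For EGFR, over 13 libraries, they were ASAP2 (0.941), SLC16A1 (0.940) and LOC100129931 (0.931). The libraries share their groups, so these values describe a likeness of group pattern and carry no test.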

How the data were processed

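Poly(A)-selected, strand-specific paired-read RNA libraries were made per the labels' protocols. The authors deposited 1 table of FPKM values, for which the submitters' processing notes name Bowtie, TopHat, Cufflinks, Cuffnorm and hg19; versions, annotation and library scaling are not given in the sources used here. FPKM carry no counts, so no count test or interval could be made. Each column was matched to a library by its name.

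Named loci that reached 1 FPKM in 2 or more libraries (13137) entered a limma 3.58.1 fit (R 4.3.3) of log2(FPKM + 1), all 14 libraries in 1 fit by group, with an intensity trend, two-sided. Fold changes on this scale understate those of low genes. P values were adjusted by Benjamini and Hochberg over all tested loci of a comparison, with a threshold of 0.05. The fit had 7 residual degrees of freedom, 6 with 1 library missing, and a prior of 3.77. Zeros of the empty part of MRTFB dN dPY replicate 1 were treated as missing. Of the loci of AREG and EGFR, 2 each, the higher was used. The labels do not name each construct's vector. The fit reported had no block.

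The 10 genes, the 5 pathway lists (57 genes) and the rule for naming their genes (the up to 4 largest changes per list among called genes at a mean of 3 FPKM or more) were chosen with earlier results of these data known. The script was tested on simulated data. Alternatives were a pseudocount of 0.1, no filter, median-of-ratios scaling, only the compared groups, no trend, the replicate block, the other vector, zeros kept and leaving out each library. Python 3.11.15, numpy 2.4.6, pandas 2.3.3 and matplotlib 3.10.9 were used.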

Additional observations from a re-analysis of the deposited data

Results flagged for a closer look

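The effects of MRTFB dN and YAP 5SA, each against its own vector, differed by a test of the difference itself in 4 of the 10 genes. Of all tested loci 29% passed that test. The differences were 3.47 for HBEGF, 2.13 for TGFA, 1.545 for ERBB2 and -2.551 for EGFR on the log2 scale. The ERBB2 call held in 3 of 7 other settings, and its value ran from 1.01 to 2.08 when 1 library was left out.

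The table holds a second locus named EGFR that the comparisons above do not use. It stood at 4.15 and 53.5 FPKM in replicates 1 and 2 of the Puro vector, at 0.463 and 0.782 in YAP 5SA, and at no more than 0.109 in the other libraries with a value. Of its 29 neighbours in the order of the loci whose strand is known, 28 lie on the minus strand, while 31 of the 32 around the locus used lie on the plus strand, as EGFR does. A second locus named AREG stood at 4.16 FPKM in MRTFB dN replicate 2 and at no more than 0.256 in the other libraries.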

How the results depend on the processing

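Of the 35 calls over the 12 comparisons, 34 held with a pseudocount of 0.1, 34 with median-of-ratios scaling and 34 without the intensity trend. The number held was 23 without the filter, 26 with zeros of the empty part kept and 13 with only the compared groups in the fit. Of the 22 calls of a construct against a vector, 8 held with the other vector as control, 9 ended and the rest changed sign. A further 4 passed there with their sign kept. The count of genes called in YAP 5SA, 2 of 10, was 1 under a pseudocount of 0.1, no filter, only the compared groups and no trend. Over all tested loci 963, 705, 176 and 1098 passed in that order, against 1085 in the main fit. The tested loci were 13137, and 27543 without the filter. The count in YAP 5SA was 0 with the zeros kept (724 of all loci). It was also 0 with the loci of a gene summed (1083 of all loci), a setting chosen after seeing the data. With the Puro vector as control (1289 of all loci) the count was again 1. That call was EREG, which was lower, and neither AREG (0.45) nor EGFR (0.24) passed. With only the compared groups the count was 2 in MRTFB dN, 1 in MRTFB dN dPY, and 0 in MRTFB dN Y305A, MRTFB dN Y305A/dPY and the vector comparison. All tested loci then gave 1890, 1564, 7, 34 and 0 calls in that order, against 4836, 4706, 3310, 3472 and 1868 in the main fit. Without the filter the count was 1 in MRTFB dN Y305A, MRTFB dN Y305A/dPY and the vector comparison. There 2088, 2221 and 1025 of all loci passed in that order. With the Hygro vector as control the count was 1 in MRTFB dN Y305A (343 of all loci) and in MRTFB dN Y305A/dPY (352). In MRTFB dN (2508 of all loci) HBEGF and TGFA held there, and AREG, EPGN and ERBB3 passed as well. In MRTFB dN dPY (2700 of all loci) BTC, HBEGF, TGFA and ERRFI1 held, and ERBB3 passed as well. With the zeros kept the count was 1 for MRTFB dN Y305A against MRTFB dN (1692 of all loci). It was then 2 for the difference of the MRTFB dN and YAP 5SA effects (2976 of all loci). With the other vector as control the sign changed for EREG in YAP 5SA (-2.11, adjusted p = 0.0206), MRTFB dN (0.38), MRTFB dN dPY (0.21), MRTFB dN Y305A (0.45) and MRTFB dN Y305A/dPY (0.25), and for ERBB3 in MRTFB dN Y305A/dPY (-0.12). The causes were not tested.

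Leaving out 1 library, the count ran from 0 to 2 in YAP 5SA, 2 to 7 in MRTFB dN, 3 to 6 in MRTFB dN dPY, 0 to 4 in MRTFB dN Y305A, 0 to 5 in MRTFB dN Y305A/dPY, 2 to 3 for MRTFB dN Y305A against MRTFB dN, 3 to 5 upon loss of SRF binding, 2 to 5 for the difference of effects and 0 to 3 between the vectors. The lone library left in a group is then assumed to vary like the others. The number of all tested loci that passed also changed with the library left out. In 66 of these refits, and in 83 over all alternatives, a value that passed neither before nor after changed sign.

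The labels give replicate numbers only, and samples share no more than a number. Replicate differences correlated at 0.309 to 0.645 between the MRTFB groups and at -0.145 to 0.233 between other pairs of groups. With the replicate block all 35 calls held and 10 further ones passed (6 of AREG, 2 of EPGN, 1 each of BTC and EREG). The count was 5 in MRTFB dN Y305A and 7 for the difference of effects. Over all tested loci 3637 and 4104 passed there, against 3310 and 3812 without the block. A separate block for the YAP 5SA and MRTFB parts was chosen after seeing the data. With it the count was 5 in MRTFB dN Y305A, 4 for MRTFB dN Y305A against MRTFB dN, 7 for the difference of effects and 5 between the vectors. Over all tested loci 4279, 2617, 4580 and 2627 passed in that order.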
